A study of Mus musculus with 54 samples.

Results

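The 6 transcription regulators studied here hold the proximal tubule in its differentiated, oxidative state: Hnf4a, Hnf4g, Ppargc1a, Esrra, Nr1h4 and Vdr. They were followed across the 9 groups of a study of the mouse late proximal tubule. They are the 6 rows of the deposited expression table, of 19068 genes, that carry these symbols. All 6 passed the filter on low values, an average of 1 TPM or more (transcript abundance scaled to transcript length and library), which left 15424 genes for testing. The tissue was S3, the last segment of the proximal tubule, cut by laser from kidney sections as tubules that bound the lectin LTL and lacked SGLT2 protein, 70 to 80 tubules per sample. All animals were male mice of the DBA background aged 14 weeks. Akita mice (Ins2 Akita/+), which become diabetic because a mutant insulin misfolds in the beta cells, formed 5 groups: Sglt1-/- on dapagliflozin (6 libraries), Sglt1-/- on vehicle (6), Sglt1+/+ on semaglutide (5), Sglt1+/+ on dapagliflozin (5) and Sglt1+/+ on vehicle (6). Their nondiabetic littermates (Ins2+/+) formed 4 groups of 6 libraries: Sglt1-/- on dapagliflozin, Sglt1-/- on vehicle, Sglt1+/+ on dapagliflozin and Sglt1+/+ on vehicle. Dapagliflozin, which blocks the glucose carrier SGLT2 of the early proximal tubule, was given at 10 mg per kg of diet, and semaglutide, which activates the GLP-1 receptor, at a daily 3 nmol per kg of body weight, each for 2 weeks. Sglt1 is the carrier, encoded by Slc5a1, that takes up glucose in S3 itself. The labels do not say that each library is a separate mouse, so the p-values measure the spread between these libraries.

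HNF4A and its paralog HNF4G are nuclear receptors that switch on the brush border, transport and gluconeogenic genes of the mature proximal tubule, and HNF4A is needed in the mouse for proximal tubule cells to mature. PGC1A (Ppargc1a) is a coactivator without DNA binding of its own that works through receptors such as ERRA (Esrra) to raise mitochondrial mass, fatty acid oxidation and NAD synthesis. FXR (Nr1h4) is the bile acid receptor, and VDR is the receptor for active vitamin D, which the proximal tubule makes from a precursor that it takes up with its carrier protein.

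In the labelled knockouts Slc5a1 ran from 0.151 to 1.34 TPM in 24 libraries, against 27.3 to 103 TPM in 28 wild-type libraries, without overlap. Markers of S3 summed to 6287 to 19652 TPM per library and those of S1 and S2, the earlier segments, to 1154 to 2827 TPM. The S3 sum had a median of 15099 TPM, where Slc27a2 and Atp11a had 8179 and 4418 TPM. The S1 and S2 sum had a median of 1429 TPM, where Slc6a18 had 882 TPM. These sums rest on a few abundant genes and do not measure the purity of the segment. Slc5a2, which encodes SGLT2, was present at 3.93 to 205 TPM. The 6 markers of the thick ascending limb, the neighbouring tubule of the outer medulla, summed to 426 to 4611 TPM (median 1292), and no library was free of them. Summed TPM reached 984393 to 2253870 per library, and 20.3 to 52.3% of it was mitochondrial ribosomal RNA. The number of reads is unknown, so no counting error can be given.

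The members lie on 6 different chromosomes of GRCm38 (GENCODE vM21): Hnf4a on chromosome 2 (163506808 to 163572910, plus strand), Hnf4g on 3 (3508030 to 3658052, plus), Ppargc1a on 5 (51454250 to 51567726, minus), Nr1h4 on 10 (89454234 to 89533585, minus), Vdr on 15 (97854425 to 97910630, minus) and Esrra on 19 (6910977 to 6921813, minus). All are protein coding. The lower coordinate of Ppargc1a lies 18.4 Mb from that of Slc5a1, the gene deleted in the knockouts. Khk and Gc, list genes named below, are on chromosome 5 too, and Khk lies closer to Slc5a1, at 2.18 Mb. Esrra overlaps the coding gene Trmt112 (35.9 TPM), and Hnf4a overlaps an antisense gene, Hnf4aos (5.77 TPM), each on the other strand. The library kit marks strand, but how strand was counted is not given in the sources used here.

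Upstream sequence is shown for 3 genes on which the results turn. Hnf4a has 2 starts in the RefSeq windows, 40.3 kb apart, and 4 starts of coding transcripts in the gene annotation. Of the 2, the upstream one, P2, is known for pancreas and gut, and the downstream one, P1, for liver and kidney. The TPM are per gene, so these values cannot tell the starts apart. Nr1h4 is the member with the lowest adjusted p below, and Ddc is a list gene that passed the test in diabetes. The Nr1h4 window lies inside the annotated gene, which has 3 starts of coding transcripts, so it is not the sequence before the outermost start. The stretches come from RefSeq windows (GRCm38.p6) of the 250 bases before a start, cut to the part outside annotated exons, on the gene's own strand. Capitals mark AAGGTCA, a half-site used by ERR and HNF4 receptors (reverse complement TGACCTT), and a stretch with none is all in lower case.
Hnf4a upstream start, chr2:163506607-163506807, plus strand: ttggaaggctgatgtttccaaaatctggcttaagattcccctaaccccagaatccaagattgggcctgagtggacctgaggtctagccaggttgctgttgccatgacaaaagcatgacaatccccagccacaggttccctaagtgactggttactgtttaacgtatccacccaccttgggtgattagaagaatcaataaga
Hnf4a downstream start, chr2:163546943-163547154, plus strand: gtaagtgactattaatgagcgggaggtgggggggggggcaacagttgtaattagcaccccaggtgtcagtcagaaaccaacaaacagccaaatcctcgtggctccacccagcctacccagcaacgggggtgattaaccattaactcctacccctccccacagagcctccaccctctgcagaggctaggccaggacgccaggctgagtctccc
Nr1h4, chr10:89506659-89506908, minus strand: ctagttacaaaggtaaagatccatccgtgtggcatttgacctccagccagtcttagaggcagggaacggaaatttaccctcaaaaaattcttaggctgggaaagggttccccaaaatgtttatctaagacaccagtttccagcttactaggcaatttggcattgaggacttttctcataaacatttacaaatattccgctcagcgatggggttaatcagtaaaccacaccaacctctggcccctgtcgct
Ddc, chr11:11898145-11898394, minus strand: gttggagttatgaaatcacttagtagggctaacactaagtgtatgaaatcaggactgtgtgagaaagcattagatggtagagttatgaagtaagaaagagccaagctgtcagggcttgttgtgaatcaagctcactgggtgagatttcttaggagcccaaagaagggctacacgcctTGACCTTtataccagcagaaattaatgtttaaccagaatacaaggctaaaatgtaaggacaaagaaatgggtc
AAGGTCA stands on either strand in 4.08% of 32851 full 250-base windows. It was found in the window of Ddc shown, as a reverse match 73 to 67 bases before the start, and in none of the 6 windows of the 5 members that have one. The other window of Ddc and those of Khk and Gc, which also passed in diabetes, did not hold it and are not shown. CAAAGTC, a core of HNF4 sites (3.84% of windows), and TGACGTCA, the cyclic AMP response element (1.55%), were in no member window.

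The 6 members differed widely in level. The ranges of the groups overlapped in every pair of groups for each member, except for Hnf4g in nondiabetic knockout vehicle (12.8 to 17.005 TPM) and Akita wild-type dapagliflozin libraries (9.31 to 12.1 TPM), a pair that differs in 3 factors and was not compared. Hnf4a was by far the most abundant at 411 ± 66.2 TPM (SD, n = 52 libraries; 192 to 557 TPM), rank 212 of the 15424 tested genes. Vdr followed at 82.7 ± 13.3 TPM (50.3 to 114 TPM) and Nr1h4 at 58.4 ± 15.5 TPM (29.0 to 114 TPM). Ppargc1a averaged 39.2 ± 18.2 TPM (21.9 to 134 TPM) and its partner Esrra 29.0 ± 7.97 TPM (18.03 to 54.03 TPM). Hnf4g was the lowest at 13.1 ± 3.55 TPM (3.84 to 19.5 TPM). No member was at 0 in any library. Hnf4a exceeded Vdr in 52 of 52 libraries, with no overlap of their ranges, and Esrra exceeded Hnf4g in 51. Vdr exceeded Nr1h4 in 47, Nr1h4 exceeded Ppargc1a in 47 and Ppargc1a exceeded Esrra in 38 of 52, so the order of these 4 varied between libraries.

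Within groups Vdr and Hnf4a were among the steadier genes of the tissue. The SD of log2(TPM + 1) around the group means was 0.206 for Vdr and 0.244 for Hnf4a, and 5.12% and 12.8% of tested genes had a smaller one. It was 0.313 for Nr1h4, 0.338 for Esrra, 0.383 for Hnf4g and 0.444 for Ppargc1a, with 59.8% of tested genes below Ppargc1a.

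**Figure D1:**
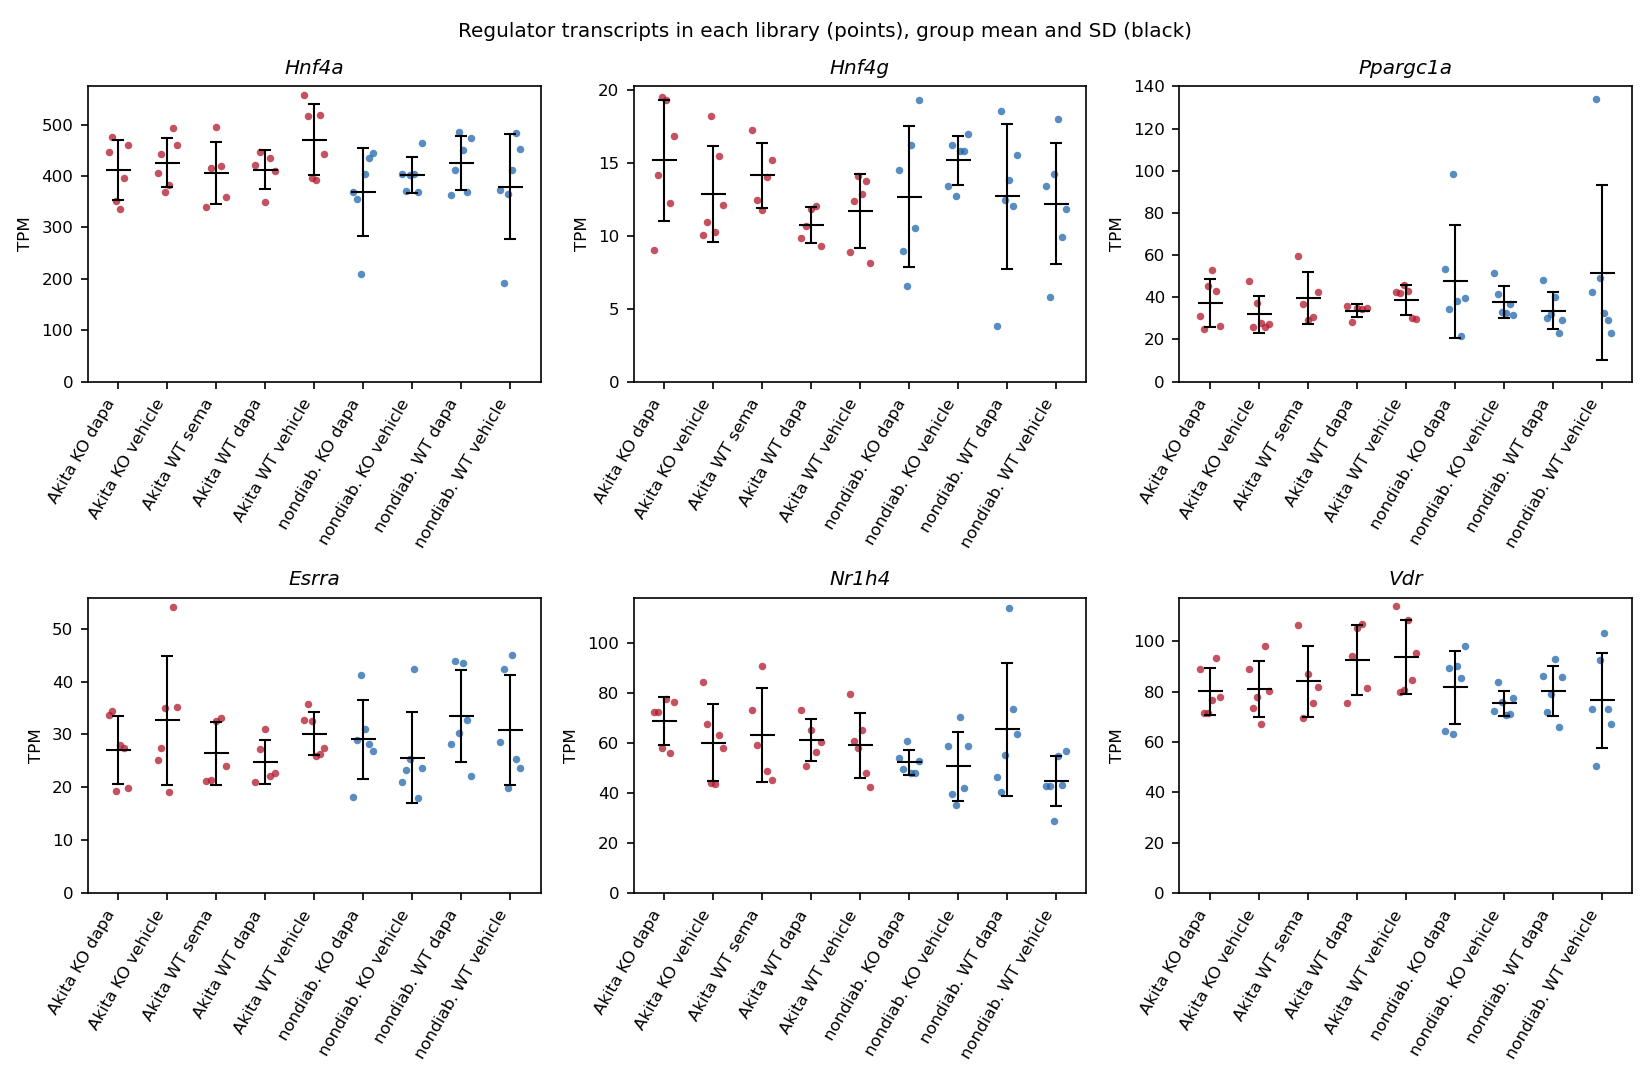
TPM of the 6 regulators (vertical axes, linear from 0) in the 9 groups, 1 point per library (red Akita, blue nondiabetic) with the group mean and SD in black; KO and WT are Sglt1 genotypes, dapa is dapagliflozin and sema semaglutide. Ranges overlap between groups for each gene, except Hnf4g in nondiabetic knockout vehicle and Akita wild-type dapagliflozin libraries, and 1 nondiabetic wild-type vehicle library stands at 134 TPM for Ppargc1a and 192 TPM for Hnf4a.

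The first question was whether diabetes altered these regulators. No member passed the test in any of the 22 comparisons made, at an adjusted p under 0.05 from limma with Benjamini-Hochberg adjustment over all tested genes. Of 132 member tests, 7 (5.30%) had an unadjusted p under 0.05, beside 5.22% of the tests of all genes. All 7 came from comparisons that use the nondiabetic wild-type vehicle libraries, so they are not independent. In Akita against nondiabetic wild-type vehicle libraries 0 of 6 members passed, beside 0.389% of all genes. At an unadjusted p under 0.05 were 3 of 6, beside 10.2% of all genes. In the average of the 4 Akita against nondiabetic comparisons 0 of 6 passed, beside 0.966% of all genes. There 2 of 6 had an unadjusted p under 0.05, beside 13.4% of all genes. In the other single comparisons of diabetes or of dapagliflozin 0 of 6 members passed, beside at most 0.00648% of all genes. Only 1 had an unadjusted p under 0.05, Nr1h4 with dapagliflozin in nondiabetic wild-type mice (log2 0.48, adjusted p 0.638 in limma). In that comparison 7.03% of all genes had one.

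For Hnf4a, the 6 Akita wild-type vehicle libraries ran from 392 to 557 TPM (median 479), against 192 to 483 TPM (median 392) in the 6 nondiabetic wild-type vehicle libraries. Each of the 6 Akita libraries exceeded the nondiabetic median, though the groups overlapped. The log2 difference was 0.35 ± 0.16 (SE; 95% interval 0.04 to 0.67), with an adjusted p of 0.413 in limma. Without the nondiabetic library at 192 TPM it was 0.17. Averaged over genotype and drug, Hnf4a stood at 431 ± 57.3 TPM in 23 Akita libraries and at 394 ± 72.5 TPM in 24 nondiabetic ones (SD), a log2 difference of 0.14 (-0.02 to 0.30).

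Hnf4g showed no such lean. It had 8.13 to 14.1 TPM (median 12.7) in Akita wild-type vehicle libraries and 5.79 to 18.001 TPM (median 12.6) in nondiabetic ones, a log2 difference of -0.02 (-0.50 to 0.47). The averaged difference was -0.02 (-0.27 to 0.22). These intervals are wide, and a response of a size within them could have been missed here.

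Nr1h4 gave the lowest adjusted p of any member. The 6 Akita wild-type vehicle libraries held 42.4, 48.2, 58.3, 61.1, 65.3 and 79.6 TPM, against 29.0, 42.8, 43.01, 43.2, 54.99 and 56.8 TPM in the nondiabetic ones. The values overlapped, with 5 of the 6 Akita libraries above the nondiabetic median. Over the 4 settings Nr1h4 averaged 62.5 ± 12.01 TPM in 23 Akita libraries and 53.4 ± 16.8 TPM in 24 nondiabetic libraries (SD), and 18 of the 23 lay above the nondiabetic median. The averaged log2 difference was 0.25 ± 0.10 (SE; 0.05 to 0.45), with an adjusted p of 0.235 in limma. By setting it was 0.39 (0.0014 to 0.78) in wild-type vehicle and 0.39 (-0.0045 to 0.77) in knockout dapagliflozin libraries, 0.25 (-0.14 to 0.64) in knockout vehicle and -0.02 (-0.43 to 0.39) in wild-type dapagliflozin libraries, and it passed in none of the 4.

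Vdr had 80.0 to 114 TPM (median 89.97) in Akita wild-type vehicle libraries and 50.3 to 103 TPM (median 73.1) in nondiabetic ones, each of the 6 Akita libraries exceeding the nondiabetic median. The log2 difference was 0.31 ± 0.13 (SE; 0.04 to 0.58) with an adjusted p of 0.395 in limma, and 0.20 without the same nondiabetic library, which at 50.3 TPM was the lowest of all 52 for Vdr too. Averaged, Vdr stood at 86.7 ± 13.2 TPM in Akita and 78.5 ± 12.5 TPM in nondiabetic libraries (SD), a log2 difference of 0.15 (0.01 to 0.28; adjusted p 0.327).

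The mitochondrial pair did not lean the same way. Ppargc1a ran from 29.8 to 45.8 TPM (median 42.2) in Akita wild-type vehicle libraries and from 22.9 to 134 TPM (median 37.5) in nondiabetic ones. Its log2 difference of -0.16 (-0.70 to 0.38) became 0.16 without the nondiabetic library at 134 TPM, so 1 library set its sign. The averaged difference was -0.16 (-0.43 to 0.12), and it was -0.077 without that library. Esrra had 25.9 to 35.8 TPM (median 30.0) in Akita wild-type vehicle libraries and 19.9 to 45.0 TPM (median 27.0) in nondiabetic ones, with a log2 difference of 0.02 (-0.40 to 0.44), and its averaged difference was -0.04 (-0.25 to 0.18).

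**Figure D2:**
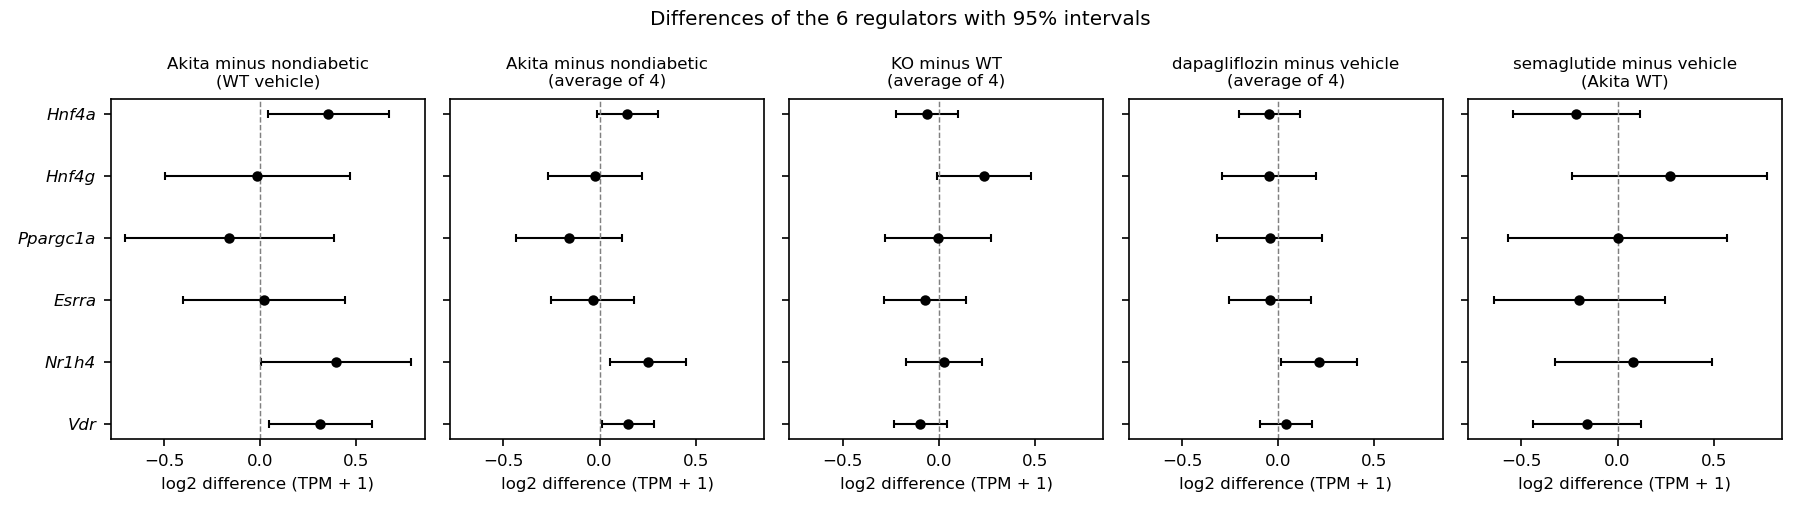
Log2 differences of TPM + 1 (horizontal axes, shared) for the 6 regulators in 5 comparisons, points with 95% intervals from limma, not adjusted for the number of genes. No member passed after adjustment, and the intervals of the 3 averaged comparisons reach from -0.43 to 0.48, against -0.70 to 0.78 in the 2 comparisons of single groups.

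Loss of Sglt1, a glucose carrier of S3, was the second question. Between the 4 knockout and the 4 wild-type groups 0 of 6 members passed (0 at an unadjusted p under 0.05), where 0.0519% of all genes did. Hnf4g came closest, at 13.98 ± 3.65 TPM in 24 knockout libraries and 11.9 ± 3.43 TPM in 23 wild-type ones (SD). Its averaged log2 difference was 0.23 (-0.01 to 0.48; adjusted p 0.714 in limma), and 17 of 24 knockout libraries lay above the wild-type median. The other 5 members had averaged differences between -0.10 (Vdr, -0.23 to 0.04) and 0.03 (Nr1h4, -0.17 to 0.22). In the 4 knockout comparisons taken singly 0 of 6 members passed in each (0 unadjusted), beside 0.0195% of all genes in nondiabetic vehicle, 0.0259% in Akita vehicle, 0.0324% in nondiabetic dapagliflozin and 0.0195% in Akita dapagliflozin mice. For Hnf4a the averaged difference was -0.06 (-0.22 to 0.10), at 402 ± 59.5 TPM in knockout and 422 ± 74.6 TPM in wild-type libraries (SD).

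Dapagliflozin was compared with vehicle in the same 4 backgrounds. On average 0 of 6 members passed, where 0% of all genes did. At an unadjusted p under 0.05 was 1 of 6, beside 4.09% of all genes. Nr1h4 averaged 62.1 ± 15.6 TPM in 23 dapagliflozin libraries and 53.8 ± 13.96 TPM in 24 vehicle libraries (SD), a log2 difference of 0.21 (0.02 to 0.41; adjusted p 0.999 in limma). Its nondiabetic wild-type dapagliflozin group ran from 40.5 to 114 TPM, and the value of 114 TPM was the highest Nr1h4 of all 52 libraries. The nondiabetic wild-type vehicle group had the lowest Nr1h4 mean of the 9 groups, 44.96 TPM. Both the diabetes and the dapagliflozin comparisons use that group, so their Nr1h4 differences are not independent. The other 5 members lay between -0.05 (Hnf4g, -0.29 to 0.20) and 0.04 (Vdr, -0.09 to 0.18).

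Semaglutide was given to wild-type Akita mice alone. Its libraries are numbered 88 to 99, the wild-type Akita vehicle ones 1 to 82 and the dapagliflozin ones 17 to 78. An effect of semaglutide therefore cannot be told apart from one that goes with library number. Again 0 of 6 members passed (0 at an unadjusted p under 0.05), where 0% of all genes did. Hnf4a held 339, 359, 416, 419 and 495 TPM in the 5 semaglutide libraries, against 392, 397, 443, 516, 519 and 557 TPM in the 6 vehicle libraries. The groups overlapped and 1 of 5 semaglutide libraries lay above the vehicle median, with a log2 difference of -0.21 (-0.54 to 0.12). Vdr, at 84.1 ± 14.2 TPM with semaglutide and 93.9 ± 14.7 TPM with vehicle (SD), differed by -0.16 (-0.44 to 0.12). Hnf4g had 14.2 ± 2.22 TPM with semaglutide and 11.7 ± 2.55 TPM with vehicle (SD), a difference of 0.27 (-0.23 to 0.78). Ppargc1a, Esrra and Nr1h4 differed by 0.00, -0.20 and 0.08. Semaglutide was also set against dapagliflozin in wild-type Akita mice, where Hnf4g had 11.8 to 17.3 TPM with semaglutide and 9.31 to 12.1 TPM with dapagliflozin, a log2 difference of 0.36 (-0.16 to 0.89). All 5 semaglutide libraries lay above the dapagliflozin median, though the ranges overlapped, and 0 of 6 members passed in that comparison (0 unadjusted), beside 0% of all genes.

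Whether 1 factor altered the response to another was tested as a difference of differences in 5 comparisons. In these 0 of 6 members passed (0 unadjusted in each), beside 0.00648% of all genes for diabetes by dapagliflozin and 0% in the other 4. The lowest unadjusted p was that of Esrra for diabetes by dapagliflozin, 0.058, with a log2 value of -0.41 (-0.84 to 0.01). Esrra had 27.1 ± 6.48 and 24.8 ± 4.17 TPM in Akita knockout and wild-type mice on dapagliflozin and 32.7 ± 12.1 and 30.1 ± 4.08 TPM in those on vehicle (SD). In nondiabetic knockout and wild-type mice it had 29.1 ± 7.41 and 33.5 ± 8.71 TPM on dapagliflozin and 25.6 ± 8.60 and 30.8 ± 10.4 TPM on vehicle (SD). For Ppargc1a the value for knockout by dapagliflozin was 0.48 (-0.07 to 1.03), with an adjusted p of 0.999 in limma, and it was -0.11 once the thick ascending limb score was in the model.

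Genes that the members are known to control, or that work with them, were read from lists. These lists were chosen with earlier results of these data known, so a share that passed is no test of a list. Of all tested genes, 13.4% had an unadjusted p under 0.05 in averaged diabetes and 7.22% in averaged knockout. The share was 4.09% in averaged dapagliflozin and 5.19% with semaglutide. Unadjusted counts of the lists below stand beside these shares. In the list of HNF4A targets 2 of 20 tested genes rose in averaged diabetes and 0 fell, beside 0.784% of all genes higher and 0.182% lower. The list's median log2 difference was 0.10, beside 0.03 over all tested genes, and 15 of 20 were above 0. They were Ddc, which makes dopamine from L-DOPA in the proximal tubule, and Khk, the ketohexokinase that starts fructose metabolism.

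Ddc had 28.6 ± 9.85 TPM in 23 Akita libraries and 16.5 ± 6.17 TPM in 24 nondiabetic ones (SD), a log2 difference of 0.77 ± 0.14 (SE; adjusted p 0.00136 in limma). Khk had 524 ± 137 TPM in Akita and 379 ± 122 TPM in nondiabetic libraries (SD), a difference of 0.49 ± 0.11 (adjusted p 0.0194 in limma). Fbp1, the gluconeogenic fructose bisphosphatase, followed at 0.38 ± 0.10 (adjusted p 0.0532 in limma) and did not pass. Beside these, Hnf4a itself differed by 0.14 and Hnf4g by -0.02. In wild-type vehicle libraries alone Ddc (1.46 ± 0.29, adjusted p 0.00426 in limma) passed, 1 of 20, beside 0.337% of all genes higher. It lost that call with the log2 sum of TPM in the model (adjusted p 0.102 in limma). In knockout vehicle, wild-type dapagliflozin and knockout dapagliflozin libraries 0 of 20 targets passed, beside at most 0.00648% of all genes. At an unadjusted p under 0.05 in limma there were 4, 1 and 0, beside 6.65%, 3.46% and 5.12% of all genes. The averaged calls therefore do not speak for each setting. The list's medians did not follow the calls. In vehicle libraries the median was 0.07 in wild type (11 of 20 above 0) and 0.40 in knockout (17 of 20). In dapagliflozin libraries it was 0.03 in wild type (12 of 20) and 0.17 in knockout (15 of 20). Over all tested genes these medians were 0.05, 0.01, 0.02 and 0.03. Khk lost its averaged call when the score of other cell types was in the model (0.35, adjusted p 0.143 in limma) or the 3 libraries of highest thick ascending limb score were left out (adjusted p 0.0755).

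Markers of other cells were read beside these. In averaged diabetes 1 of 8 tested macrophage and leukocyte markers, Laptm5, a lysosomal protein of blood cells, fell (-0.81 ± 0.17, adjusted p 0.00401 in limma), beside 0.182% of all genes lower, and the median of the 8 was -0.48. The 8 endothelial markers had a median of -0.19 and the 5 tested thick ascending limb markers one of -0.17, with 0 passing. Above 0 were 1 of 8 macrophage, 0 of 8 endothelial and 1 of 5 limb markers. At an unadjusted p under 0.05 in limma there were 6, 5 and 0, beside 13.4% of all genes. In the macrophage list the summed level ran from 294 to 660 TPM over all libraries. Most of that sum was Csf1r (median 320 TPM) and Cd74 (72.9 TPM). The other markers with values had medians of 12.5 TPM (H2-Aa) or less, so the sum does not measure macrophage content. The part of these other cells in the values of Ddc, Khk and the members was not tested beyond the covariate fits. Fewer cells of a type and less RNA per cell cannot be told apart in such bulk samples.

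With semaglutide 0 of 20 HNF4A targets passed (2 at an unadjusted p under 0.05). Those 2 were Khk (-0.88 ± 0.24, adjusted p 0.398 in limma) and Ddc (-0.93 ± 0.30, adjusted p 0.584). Khk held 349 ± 138 TPM in 5 semaglutide libraries and 623 ± 149 TPM in 6 vehicle libraries (SD). Both comparisons use the Akita wild-type vehicle libraries, so opposite signs in them are not independent. Library number also parts the semaglutide from the vehicle libraries, as given above. In the difference of differences for diabetes by dapagliflozin the 20 targets had a median of -0.30, beside 0.00 over all tested genes, 4 of 20 above 0 and 0 passing (1 unadjusted). Knockout left 0 of 20 past the threshold (3 unadjusted), Apoh, an apolipoprotein, coming first at -0.49 (adjusted p 0.517 in limma), and dapagliflozin left 0 of 20 (0 unadjusted).

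**Figure D3:**
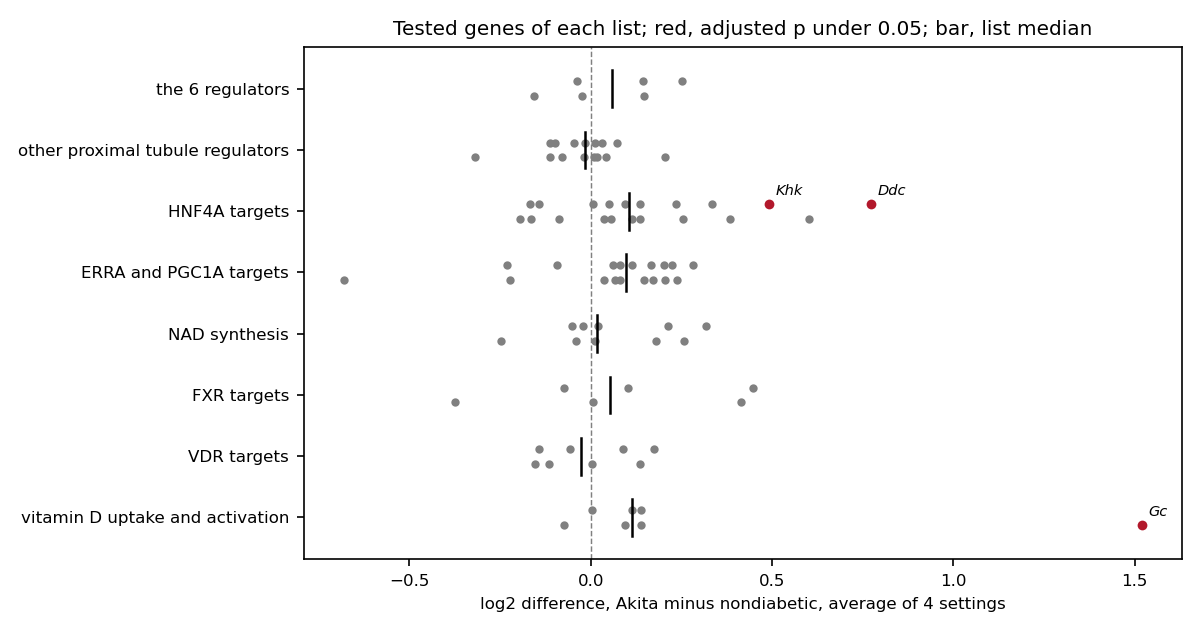
Log2 difference, Akita minus nondiabetic averaged over 4 settings (horizontal axis), of each tested gene in the 8 lists (rows), with red for an adjusted p under 0.05 in limma and a black bar at the list median. The 3 red points are Ddc and Khk among HNF4A targets and Gc in the vitamin D list, and the 6 regulators lie between -0.16 and 0.25.

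**Figure D4:**
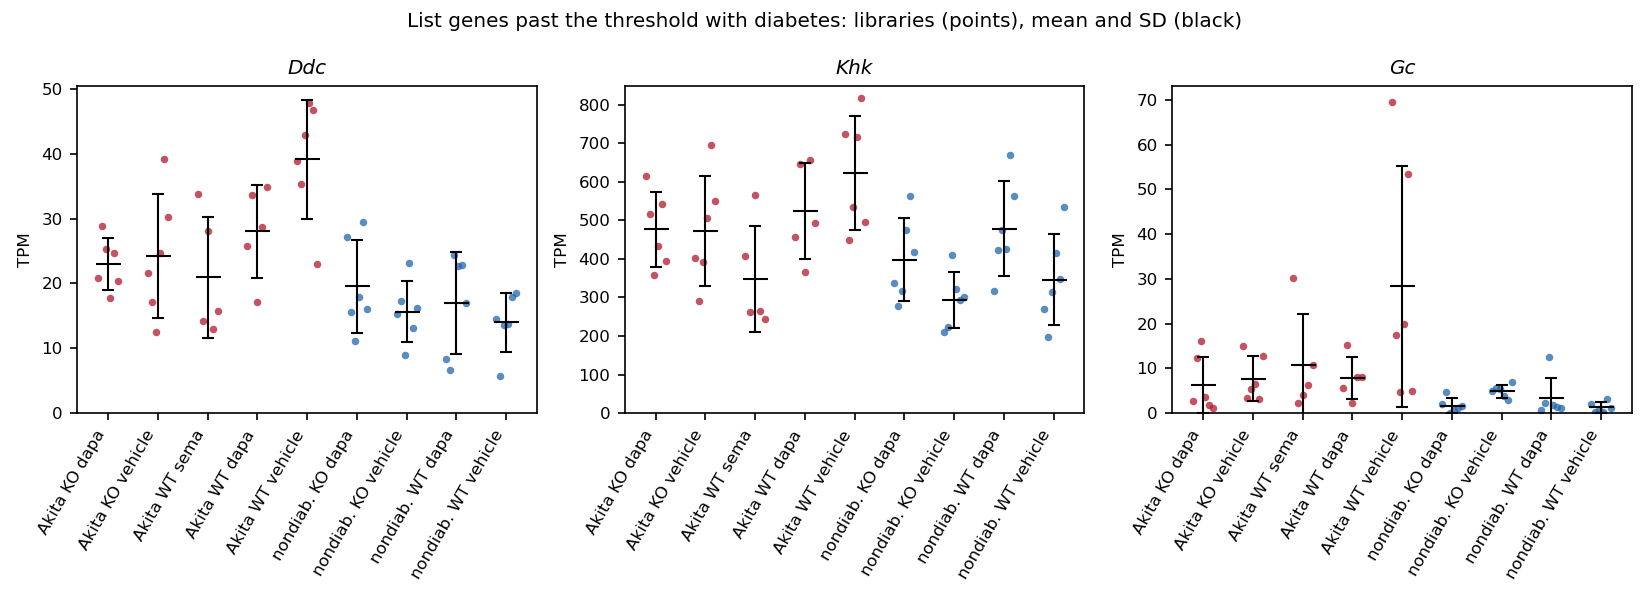
TPM (vertical axes, linear from 0) of Ddc, Khk and Gc in the 9 groups, 1 point per library (red Akita, blue nondiabetic), with group mean and SD in black. The Akita wild-type vehicle group has the highest mean in each panel, and for Gc its 6 libraries spread from 4.63 to 69.6 TPM.

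Of the 18 listed targets of ERRA and PGC1A, most of which encode proteins of fatty acid oxidation, the citric acid cycle and the respiratory chain, 0 passed in averaged diabetes (6 unadjusted), 0 with knockout (1 unadjusted), 0 with dapagliflozin (0 unadjusted) and 0 with semaglutide (1 unadjusted). Their median was 0.10 in averaged diabetes with 14 of 18 above 0, and -0.07 in averaged knockout with 2 of 18 above 0, beside medians of 0.03 and 0.00 over all tested genes. The lowest p in diabetes were those of Cpt1b, a carnitine palmitoyltransferase (-0.68, adjusted p 0.195 in limma), Vegfa, the vascular growth factor (-0.22, adjusted p 0.214), and Idh3a, a subunit of mitochondrial isocitrate dehydrogenase (0.17, adjusted p 0.257). In knockout they were Cox5b (-0.29, adjusted p 0.639), a subunit of cytochrome oxidase, and Cycs, cytochrome c (-0.24, adjusted p 0.723).

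NAD synthesis, which PGC1A is known to raise in the injured kidney, was measured in 10 tested genes. None of the 10 passed in averaged diabetes (3 unadjusted), knockout (0 unadjusted), dapagliflozin (0 unadjusted) or semaglutide (0 unadjusted). The 3 in diabetes are enzymes of the route from tryptophan: Qprt (0.32 ± 0.10, adjusted p 0.127 in limma), Kmo (0.26 ± 0.11, adjusted p 0.274) and Haao (0.21 ± 0.10, adjusted p 0.337). Kynu, the enzyme between Kmo and Haao, averaged 0.908 TPM and was not tested.

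Targets of FXR were few in this tissue. Of 9 listed genes with values 6 were tested, and Nr0b2, the repressor SHP that FXR drives in mouse liver, averaged 0.554 TPM and was at 0 in 22 of 52 libraries. None of the 6 passed in averaged diabetes (2 unadjusted), knockout (0 unadjusted), dapagliflozin (0 unadjusted) or semaglutide (0 unadjusted). In diabetes the first were Slc10a2, the apical bile acid carrier (0.45 ± 0.19, adjusted p 0.267 in limma), and Abcc2, an organic anion pump (0.41 ± 0.18, adjusted p 0.283). Slc10a2 averaged 86.6 ± 35.6 TPM and Abcc2 304 ± 113 TPM over the 52 libraries (SD).

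Targets of VDR in the kidney are best known from the distal tubule, and 8 of the 11 with values were tested here. None of the 8 passed in averaged diabetes (0 unadjusted), knockout (0 unadjusted), dapagliflozin (1 unadjusted) or semaglutide (0 unadjusted). Cyp24a1, the catabolic enzyme that VDR induces, averaged 1.67 TPM, and Cyp27b1, which activates vitamin D, 0.299 TPM with 26 of 52 libraries at 0. Atp2b1, the calcium pump, had the lowest p under dapagliflozin (-0.19, adjusted p 0.999 in limma).

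In the list of vitamin D uptake and activation 1 of 7 tested genes rose in averaged diabetes and 0 fell, beside 0.784% of all genes higher and 0.182% lower. It was Gc, the vitamin D binding protein. This list too was chosen with earlier results known, so its share is no test of it. Gc had 12.7 ± 16.6 TPM in 23 Akita libraries and 2.79 ± 2.81 TPM in 24 nondiabetic libraries (SD), a log2 difference of 1.52 ± 0.28 (SE; adjusted p 0.00128 in limma). In wild-type vehicle libraries it ran from 4.63 to 69.6 TPM in Akita and from 0.202 to 3.23 TPM in nondiabetic mice, without overlap, a log2 difference of 3.22 ± 0.56 (adjusted p 0.000691 in limma). In knockout vehicle, wild-type dapagliflozin and knockout dapagliflozin libraries 0 of the 7 genes passed, beside at most 0.00648% of all genes. At an unadjusted p under 0.05 in limma there were 0, 1 and 1, beside 6.65%, 3.46% and 5.12% of all genes. The endocytic receptors that take the protein up, Lrp2 (1047 ± 279 TPM, SD, n = 52) and Cubn (313 ± 75.01 TPM), did not pass, and Vdr itself differed by 0.15. The list had 0 of 7 past the threshold in averaged knockout (1 unadjusted), with Cyp27a1, a mitochondrial sterol hydroxylase, at -0.32 (adjusted p 0.314 in limma), in averaged dapagliflozin (1 unadjusted) and with semaglutide (0 unadjusted).

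Partners and relatives of the members were listed too. Of 18 other regulators 15 were tested, and 0 passed in averaged diabetes (1 unadjusted), knockout (1 unadjusted), dapagliflozin (0 unadjusted) or semaglutide (1 unadjusted). Nr1h3, the oxysterol receptor LXRA, had the lowest p in 3 of these, with 0.21 in diabetes (adjusted p 0.294 in limma), -0.20 in knockout (adjusted p 0.654) and -0.41 with semaglutide (adjusted p 0.942). Pax8, a factor of kidney development, averaged 207 ± 41.9 TPM (SD, n = 52). Rxra, the shared partner of FXR and VDR, averaged 43.5 ± 9.52 TPM, and Ppargc1b, the sister of PGC1A, 42.5 ± 6.82 TPM, close to Ppargc1a itself. The xenobiotic receptors Nr1i2 and Nr1i3 averaged 0.378 and 0.566 TPM and were not tested.

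Across libraries, the clearest pattern among the members was an opposition of Hnf4a and Ppargc1a. Over 52 libraries their log2(TPM + 1) values had Pearson's r = -0.767 and Spearman's rho = -0.620, each with p = 1e-05 in a 2-sided permutation test, the smallest that 100000 permutations can give, and 0.00015 after Benjamini-Hochberg adjustment over 15 pairs. Without the 2 libraries farthest from the median of Hnf4a, r was -0.504 (p = 0.00024, permutation). On deviations from the group means it was -0.795. The sign was negative in each of the 9 groups, in 7 of which there were 6 libraries, with r from -0.975 to -0.0753.

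The 2 far libraries were nondiabetic wild-type vehicle replicate 2 and nondiabetic knockout dapagliflozin replicate 3. The first had 134 TPM of Ppargc1a and 192 TPM of Hnf4a, the highest and the lowest of all 52, against 22.9 to 49.3 and 365 to 483 TPM in the rest of its group. The second had 98.3 and 210 TPM, the second highest and second lowest, against 21.9 to 53.6 and 355 to 445 TPM in the rest of its group. The same 2 libraries had the highest thick ascending limb scores. Slc12a1, the sodium-potassium-chloride carrier of that segment, stood at 1634 and 1564 TPM in them, against at most 338 and 290 TPM in the rest of their groups. Their Vdr values, 50.3 and 63.3 TPM, were the lowest of all 52.

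Ppargc1a followed the thick ascending limb beyond those libraries. Its r with the limb score, the mean log2(TPM + 1) of 6 markers, was 0.732 (rho 0.650), and 0.580 without the 3 libraries with the highest scores. It was 0.679 with the score of all other cell types, 0.477 with that of S1 and S2 and -0.671 with that of S3 markers. The score of all other cell types includes the 6 limb markers, so it and the limb score are not separate measures. Hnf4a ran the other way, with r = 0.641 for S3, -0.604 for other cell types and -0.568 for the limb. Without the 3 libraries these were 0.383, -0.574 and -0.322. Over all 52 libraries the 7 relations had an adjusted permutation p of at most 0.00123 over the 24 computed, which were chosen after the data were seen. Hnf4g (r = 0.372, adjusted permutation p 0.019) and Vdr (r = 0.329, adjusted permutation p 0.0408) also went with the S3 score, with 0.157 and 0.0994 without the 3 libraries. Nr1h4 correlated with the S1 and S2 score (r = 0.393, adjusted permutation p 0.0121), and Esrra with none of the 4 scores, its r lying between -0.115 and 0.233. With the limb score in the model the averaged diabetes difference of Ppargc1a was -0.10, and with the score of all other cell types it was 0.06, against -0.16 without either.

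**Figure D5:**
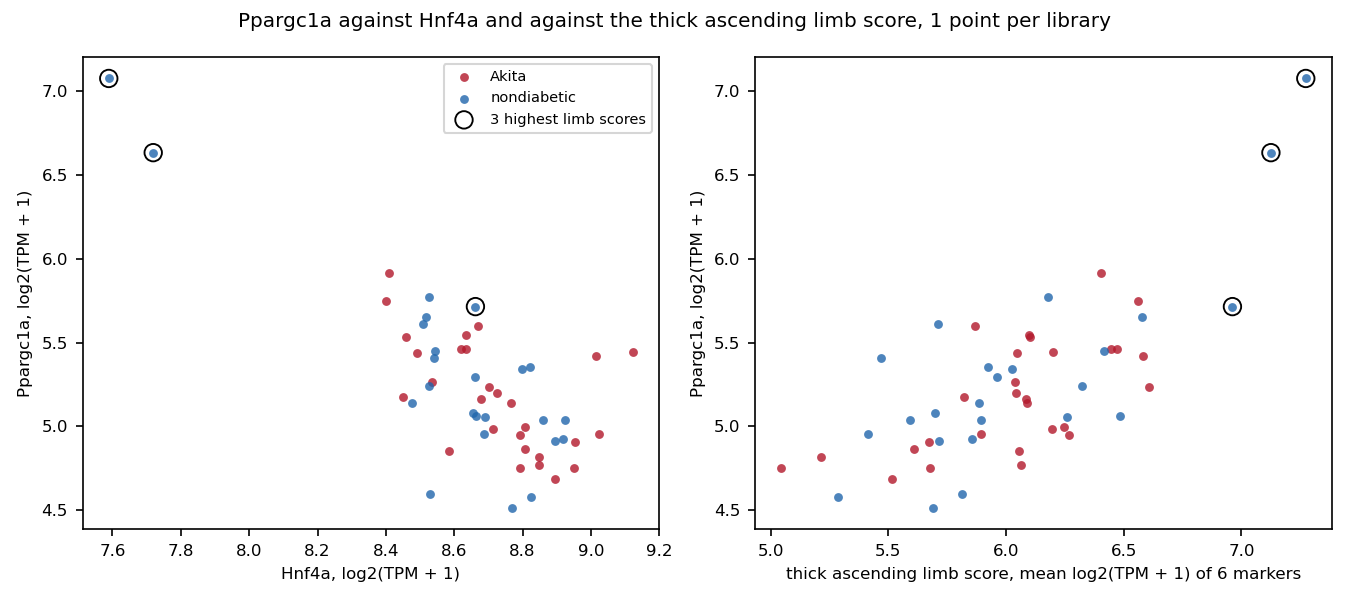
Ppargc1a (vertical axes, log2(TPM + 1)) against Hnf4a (left) and against the thick ascending limb score (right), 1 point per library, red Akita and blue nondiabetic, with rings around the 3 libraries of highest limb score. The 2 ringed libraries at upper left have 134 and 98.3 TPM of Ppargc1a, and the remaining libraries still slope down on the left and up on the right.

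Hnf4a and Vdr had r = 0.434 (adjusted permutation p 0.0112), but rho was 0.199 and r fell to 0.134 without the 2 far libraries, so the relation rested on them. The other 13 pairs did not pass, with r from -0.245 (Hnf4g and Ppargc1a) to 0.267 (Hnf4a and Hnf4g).

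The genes most like each member over the 52 libraries, by Pearson's r among genes averaging 5 TPM or more, are given as a description. For Hnf4a they were Aldh8a1, an aldehyde dehydrogenase (0.840), Pdzk1, a brush border scaffold (0.817), and Cmah (0.817). For Ppargc1a they were Cyfip2 (0.811), the orphan receptor Esrrb (0.802) and Kcnj1, the potassium channel of the thick ascending limb (0.7996), the last of them a marker in the limb score. Vdr was most like Gpam, a glycerol phosphate acyltransferase (0.674), Ptk2b (0.661) and Sbk1 (0.642), and Nr1h4 most like the succinate receptor Sucnr1 (0.639), the sulfate carrier Slc26a1 (0.590) and Nrxn2 (0.571). Likeness was weaker for Hnf4g, with Slco1a6 (0.612), Acad10 (0.602) and Ctbs (0.596), and for Esrra, with Becn1 (0.601), Nfkbil1 (0.579) and Galnt18 (0.565).

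Members and their listed targets varied together only in part. Of 20 HNF4A targets 12 had r above 0 with Hnf4a, with a median of 0.17 beside 0.07 over all tested genes and a range from -0.338 (Slc6a19, a neutral amino acid carrier) to 0.664 (Cdhr5, a brush border cadherin). Khk and Ddc stood at 0.529 and 0.525. With Hnf4g 11 of 20 were above 0, with a median of 0.00. Of 18 ERRA and PGC1A targets 2 had r above 0 with Ppargc1a, with a median of -0.31 beside -0.08 over all tested genes, from -0.723 (Acadm, medium-chain acyl-CoA dehydrogenase) to 0.617 (Cpt1b). With Esrra 10 of the 18 were above 0 (median 0.10). Of 10 NAD synthesis genes 2 were above 0 with Ppargc1a (median -0.25). Of 6 FXR targets 4 were above 0 with Nr1h4 (median 0.17 beside 0.02 over all tested genes). With Vdr 7 of 8 VDR targets were above 0 (median 0.14 beside 0.03). All 7 tested genes of vitamin D uptake and activation were also above 0 with Vdr (median 0.34). All these points share the dissections' mix of segments described above, and they are given with no test.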

How the data were processed

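RNA of laser-captured S3 tubules was sequenced from 54 labelled samples, and 52 of them have a column in the deposited table. The authors deposited log10 values of TPM per gene, named by symbol and Ensembl ID, with 19068 genes. The build was GRCm38, per the submitters' processing notes. Sources used here do not name an aligner or a counter, or say how strand was used. TPM were recovered as powers of 10, and a blank cell was read as 0. Read depth is unknown, so no counting interval could be given.

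Differences were fitted on log2(TPM + 1), with a pseudocount of 1, as 9 group means in limma 3.58.1 (R 4.3.3; trended and robust eBayes), for the 15424 genes averaging 1 TPM or more, with Benjamini-Hochberg adjustment over all of them in each of 22 comparisons and a threshold of 0.05. A fold change on this scale understates that of low genes. Averaged comparisons weight 4 settings equally and leave out semaglutide. Correlations used Python 3.11.15, numpy 2.4.6 and scipy 1.17.1 with 100000 permutations. The deposited TPM do not sum to the same total in every library, so rescaled values were tried as alternatives, as were covariates, array weights, other filters and pseudocounts, and leaving out each library. Named list genes are those past the threshold and the 3 of lowest p per list. The members and lists were chosen with earlier results of these data known. Genes that the lists name without a row in the table were not analysed here, and some others are not reported here.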

Additional observations from a re-analysis of the deposited data

Results flagged for a closer look

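Among 54 sets of a gene and a group, 3 had a library far from the others of its group, where chance gives about 1 in 20. Ppargc1a stood at 134 TPM in nondiabetic wild-type vehicle replicate 2, against 22.9 to 49.3 TPM in the other 5 libraries of that group. That library also had the highest thick ascending limb score, the lowest Hnf4a and the lowest Vdr of all 52, and the part of that segment in its values was not tested. Ppargc1a stood at 28.2 TPM in Akita wild-type dapagliflozin replicate 3, below 34.3 to 35.7 TPM in the other 4. Esrra stood at 42.4 TPM in nondiabetic knockout vehicle replicate 4, above 18.03 to 25.3 TPM in the other 5.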

How the results depend on the processing

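Over 66 settings, 0 of 4794 refits of the 132 member differences passed. The lowest adjusted p was 0.113 in limma, for Nr1h4 in averaged diabetes without nondiabetic wild-type dapagliflozin replicate 4 (log2 0.29). The sign changed under at least 1 setting for 79 of the 132 differences. No paired analysis was possible because the labels give every library a number of its own, and replicate numbers follow accession order. The causes of the changes below were not tested.

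With the score of other cell types in the model, Ppargc1a turned to 0.063 in averaged diabetes, 0.11 in wild-type vehicle diabetes, 0.016 with dapagliflozin and -0.22 with semaglutide, and Esrra to -0.015 in wild-type vehicle diabetes, and 1 HNF4A target passed in averaged diabetes. With the thick ascending limb score, a setting chosen after seeing the data, Ppargc1a turned to 0.0069 for knockout, 0.036 for dapagliflozin and -0.11 for knockout by dapagliflozin, and 2 HNF4A targets passed in wild-type vehicle diabetes. With the S1 and S2 score it turned to -0.092 for semaglutide. Without the 3 libraries of highest limb score, also chosen after seeing the data, Ppargc1a turned to 0.0055 in averaged and 0.16 in wild-type vehicle diabetes, Esrra to 0.0037 in averaged diabetes, 1 HNF4A target passed in averaged diabetes, and r of Hnf4a and Vdr was 0.13, past no threshold. With the log2 sum of TPM as a covariate, Ppargc1a turned to 0.16 in wild-type vehicle diabetes and -0.26 with semaglutide, Hnf4a to 0.049 for knockout, and 0 HNF4A targets passed in wild-type vehicle diabetes (Ddc at adjusted p 0.102 in limma).

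With library number, Hnf4g turned to 0.045 and Esrra to -0.043 in wild-type vehicle diabetes, Ppargc1a to 0.055 for knockout, and 4 HNF4A targets passed in averaged and 2 in wild-type vehicle diabetes. With the percent of mitochondrial rRNA, added after seeing the data, Hnf4g turned to 0.041 in wild-type vehicle diabetes and Ppargc1a to -0.0198 with semaglutide. Array weights turned Hnf4a to 0.011 for dapagliflozin. Median-ratio rescaling turned Esrra to -0.035 in wild-type vehicle diabetes and took r of Hnf4a and Vdr to 0.29, past no threshold. Setting the sum without mitochondrial genes equal in every library moved the median of all genes to -0.17 in wild-type vehicle diabetes, 0.10 for knockout and 0.22 with semaglutide. Under it Esrra turned to -0.22 in wild-type vehicle diabetes. For knockout Hnf4a turned to 0.046, Ppargc1a to 0.098, Esrra to 0.031 and Vdr to 0.0099, and with semaglutide Hnf4a turned to 0.036, Esrra to 0.043 and Vdr to 0.0897.

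Leaving out 1 library at a time gave ranges across 0 for Hnf4g (-0.094 to 0.0078) and Esrra (-0.076 to 0.00099) in averaged diabetes, for Hnf4g (-0.19 to 0.10), Ppargc1a (-0.34 to 0.16) and Esrra (-0.088 to 0.14) in wild-type vehicle diabetes, for Ppargc1a (-0.066 to 0.074) and Nr1h4 (-0.0033 to 0.0704) in knockout, for Hnf4g (-0.091 to 0.023) and Ppargc1a (-0.10 to 0.036) with dapagliflozin, and for Ppargc1a (-0.15 to 0.098) and Nr1h4 (-0.059 to 0.19) with semaglutide. HNF4A targets past the threshold numbered 2 to 4 in averaged diabetes, with 4 without nondiabetic wild-type dapagliflozin replicate 5, and 1 to 2 in wild-type vehicle diabetes, with 2 without nondiabetic replicate 4 or 6 or Akita replicate 2 of those groups. All genes past the threshold numbered 149 in averaged diabetes (72 to 304 under the other settings, 97 to 204 without 1 library) and 60 in wild-type vehicle diabetes (29 to 143 and 39 to 148).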
